A study of Mus musculus with 7 samples.

Results

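The day 10 5-methylcytosine (5mC) regions to which the authors assigned no gene symbol were examined. They numbered 736 of the 2401 regions in the day 10 5mC list (30.6%) and were taken by a rule that used the gene column alone and no measured value. All DNA came from ATDC5, an established mouse teratoma-derived line of chondroprogenitors that is driven toward chondrocytes by adding insulin, transferrin and selenite to its medium. The labels give day 0 input DNA (1 sample), day 0 5mC (1 sample), day 10 5mC (1 sample), day 5 5-hydroxymethylcytosine (5hmC, 2 samples) and day 10 5hmC (2 samples), with differentiation medium after day 0 as the only treatment and no genetic change named. The input was not analysed here. The study's text gives other sampling days than the labels, so the days below are those of the labels. The 5mC lists hold regions of at least 3-fold enrichment from 1 sample each. The 5hmC lists hold regions of at least 10-fold enrichment from the samples of a day merged. The day 0 5mC list held 326 regions, the day 5 5hmC list 2058 and the day 10 5hmC list 4164. The headers do not name the control of each call, so a list may hold differences between samples rather than every marked site.

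Most methylation in mammalian DNA sits on the cytosine of CpG dinucleotides. CpG is rare outside CpG islands, because methylated cytosine mutates readily to thymine, and intergenic CpG is found largely in transposed repeats and in scattered enhancers. The capture used for 5mC binds double-stranded DNA through a methyl-CpG binding complex of MBD2b and MBD3L1. It favours DNA with several methylated CpG close together, whereas 5hmC is captured after a glucosyltransferase has tagged it.

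The sequences of a few regions show what kinds of DNA were captured. They are given for the plus strand of GRCm38 from the RefSeq assembly, except where a minus strand is named. In the first set, with the regions of highest CpG content, CpG is in capitals. The stretch on chromosome 19 is rich in G and C, the first on chromosome 5 has no repeat-marked base, and the second on chromosome 5 is a short tandem repeat with a CpG in nearly every unit.
chr19:44684211-44684450: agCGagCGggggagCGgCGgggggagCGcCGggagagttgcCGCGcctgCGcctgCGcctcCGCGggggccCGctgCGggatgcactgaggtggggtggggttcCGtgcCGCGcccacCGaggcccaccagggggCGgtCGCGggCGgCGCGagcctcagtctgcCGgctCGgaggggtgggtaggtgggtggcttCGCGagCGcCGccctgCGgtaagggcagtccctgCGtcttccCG
chr5:119803722-119803961: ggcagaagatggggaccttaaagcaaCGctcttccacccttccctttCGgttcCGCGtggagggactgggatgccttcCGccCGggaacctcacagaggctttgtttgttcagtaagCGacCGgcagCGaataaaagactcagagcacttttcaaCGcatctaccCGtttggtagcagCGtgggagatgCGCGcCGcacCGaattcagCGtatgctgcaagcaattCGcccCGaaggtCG
chr5:65044507-65044746: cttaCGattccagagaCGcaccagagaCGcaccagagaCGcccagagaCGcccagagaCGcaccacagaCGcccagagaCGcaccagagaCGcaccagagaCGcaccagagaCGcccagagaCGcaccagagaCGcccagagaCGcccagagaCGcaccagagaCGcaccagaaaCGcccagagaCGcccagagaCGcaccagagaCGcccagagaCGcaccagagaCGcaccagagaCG

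The region farthest from any annotated gene shows the other extreme, with few CpG (capitals) in a tandem repeat.
chr5:133071012-133071251: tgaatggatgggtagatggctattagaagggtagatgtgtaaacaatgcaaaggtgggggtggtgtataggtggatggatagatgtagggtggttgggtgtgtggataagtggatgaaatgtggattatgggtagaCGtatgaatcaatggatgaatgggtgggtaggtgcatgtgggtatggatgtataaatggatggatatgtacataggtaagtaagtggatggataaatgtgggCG

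The next set shows 31 bases, in capitals, that recurred among the regions. The first 3 stretches hold the most shared run (family A, below), each on the plus strand. The fourth, on the minus strand, holds the run of family C.
chr1:16205715-16205865: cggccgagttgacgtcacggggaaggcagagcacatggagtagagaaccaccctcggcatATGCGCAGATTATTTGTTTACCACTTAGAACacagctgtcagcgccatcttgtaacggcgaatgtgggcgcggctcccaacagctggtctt
chr1:32794762-32794912: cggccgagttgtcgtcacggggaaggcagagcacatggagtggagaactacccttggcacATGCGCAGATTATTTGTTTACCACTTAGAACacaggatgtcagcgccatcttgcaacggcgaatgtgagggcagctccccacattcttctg
chr10:18264261-18264411: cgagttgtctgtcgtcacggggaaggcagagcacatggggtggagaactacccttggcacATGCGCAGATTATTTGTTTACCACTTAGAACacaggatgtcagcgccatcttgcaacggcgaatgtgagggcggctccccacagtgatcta
chr13:53872916-53873066: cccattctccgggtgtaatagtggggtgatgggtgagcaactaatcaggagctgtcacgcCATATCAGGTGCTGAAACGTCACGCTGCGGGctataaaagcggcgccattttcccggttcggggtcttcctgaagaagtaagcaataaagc
The last set shows the word TGACGTCA (capitals), the cAMP response element (CRE), in 2 regions where it lay outside repeat-marked sequence.
chr5:129264723-129264810: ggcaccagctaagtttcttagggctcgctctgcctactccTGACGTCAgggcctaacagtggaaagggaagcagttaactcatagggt
chr8:112241815-112241902: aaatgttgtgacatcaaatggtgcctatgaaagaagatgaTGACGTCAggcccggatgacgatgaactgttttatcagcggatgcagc

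Most of these regions were intergenic, but the missing symbol did not mean that no gene was present. In the GENCODE mouse release 21 annotation, 563 of 736 (76.5%, 95% Wilson interval 73.3 to 79.4) lay outside every gene and outside the 5000 bp upstream of protein-coding starts. Another 171 (23.2%, 20.3 to 26.4) overlapped an annotated gene and 2 lay in an upstream window. Protein-coding genes were overlapped by 65 regions (8.83%), of which 44 were intronic and 21 touched an exon, 12 of them over coding sequence. A further 106 regions (14.4%) overlapped genes of other types and no protein-coding gene. Long intergenic noncoding RNA genes were overlapped by 61 regions, processed pseudogenes by 26 and antisense RNA genes by 13, where a region can count for more than 1 type. By comparison, 94.1% of the 1665 regions with a symbol overlapped an annotated gene. As there was 1 sample, intervals here and below cover counting error over regions only.

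**Figure D1:**
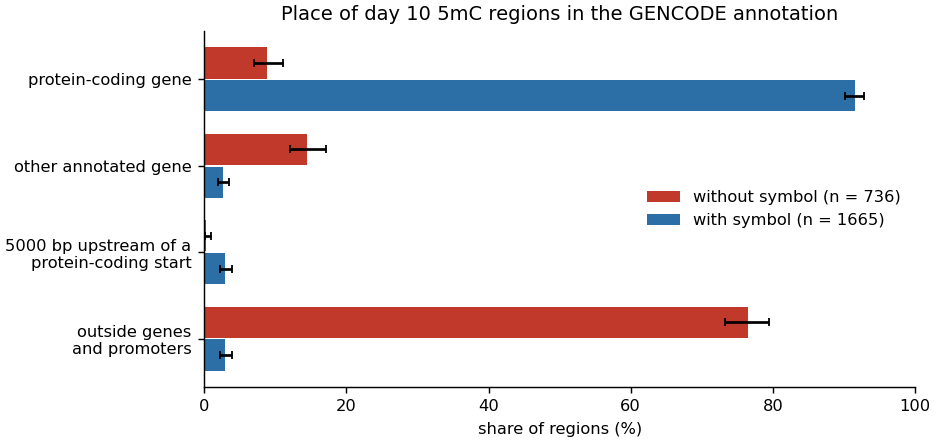
Share of day 10 5mC regions (horizontal axis, %) in each place of the annotation (vertical axis), for regions without and with a symbol. Bars are shares and whiskers are 95% Wilson intervals over regions. The 563 regions outside genes and promoters made up 76.5% of those without a symbol.

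The regions lay mostly far from promoters. The median distance to the nearest protein-coding gene was 40.8 kb and to the nearest protein-coding start 64.5 kb. For regions with a symbol the median distance to a start was 27.5 kb. Only 23 regions (3.12%) lay within 5000 bp of a protein-coding start, against 287 (17.2%) of those with a symbol, while 457 (62.1%) lay within 100000 bp. Where the region lay outside the nearest protein-coding gene, it was on the side of the gene's start in 347 cases and of its end in 324. These distances follow in part from how the symbols were assigned and were therefore not tested.

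A marked peak of CpG density coincided with the regions. The median region was 972.5 bp wide (quartiles 809.5 to 1146) and held 22 CpG (quartiles 15 to 30), or 2.30 CpG per 100 bases. Its own flanks, stretches of equal width starting 2000 bp from each edge, held a median of 0.9497. CpG density was higher in the region than in its flanks for 655 regions, lower for 68 and tied for 9 (90.6% of untied pairs, 88.2 to 92.5, two-sided exact binomial test, adjusted p = 6.23e-121, n = 732). The median difference was 1.28 CpG per 100 bases. The observed over expected ratio of CpG, which accounts for base composition, had a median of 0.440 in regions and 0.201 in flanks. The same ratio for TpG and CpA, the products of CpG mutation, was 1.20 in regions and 1.25 in flanks. The share of G and C was also higher in the region in 66.0% of untied pairs (medians 45.9% and 43.5%, two-sided exact binomial test, adjusted p = 5.03e-18).

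Most regions were denser in CpG than their flanks wherever they lay. Density was higher in 88.5% of untied pairs for regions in protein-coding genes, in 89.5% for regions in other genes and in 91.2% for regions outside both, and in 91.2% for regions with a symbol. The extent varied widely among regions, and 58 had an observed over expected ratio under 0.2 while 99 reached 0.6. Few regions met the island criteria used here over their full width, a ratio of at least 0.6 and at least 50% G and C. Both were met by 23 regions (3.12%), and shorter stretches within a region were not assessed. Among regions with a symbol the count was 90 of 1665 (5.41%, adjusted p = 0.0444 over 14 features in Fisher's exact test, two-sided). Against only those symbol-bearing regions that overlapped no exon the share was 1.42 percentage points higher without a symbol (Fisher's exact test, adjusted p = 0.207). Because the capture itself favours clustered methylated CpG, the CpG content of DNA and its methylation cannot be told apart in these lists.

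**Figure D2:**
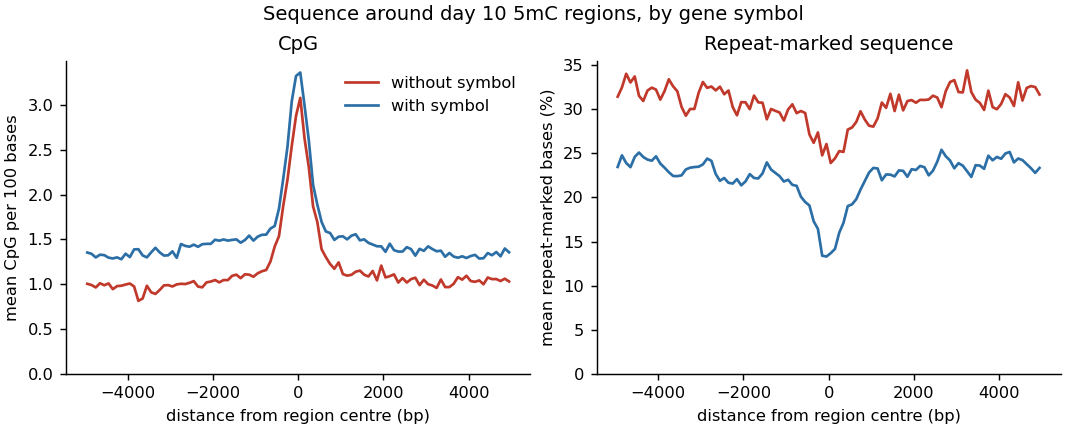
Mean CpG per 100 bases (left) and mean share of repeat-marked bases (right, %) in bins of 100 bp against the distance from the region centre (bp), for regions without and with a symbol. CpG in regions without a symbol peaked at 3.08 in the bin 50 bp from the centre and averaged 0.994 over the bins from 3000 to 5000 bp away.

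The profile around the centres, added after other values were seen, showed how narrow the CpG peak was. Without a symbol, the central 200 bp averaged 2.98 CpG per 100 bases, and the bins from 3000 to 5000 bp on either side averaged 0.994. With a symbol, the values were 3.34 and 1.33, so both kinds of region stood out from lower-lying surroundings. Repeat-marked bases made up 24.99% of the central 200 bp and 31.7% of the same outer zone without a symbol, and 13.5% and 23.8% with one.

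Repeats were depleted in the regions relative to their flanks, and yet more frequent than in regions with a symbol. The repeat-marked share was higher than in the flanks for 268 regions and lower for 463 (medians 20.1% and 26.6%, two-sided exact binomial test, adjusted p = 5.29e-13). Repeat-marked sequence made up at least 50% of 108 regions (14.7%, 12.3 to 17.4), against 60 of 1665 with a symbol (3.604%), an odds ratio of 4.60 (adjusted p = 1.98e-19 in Fisher's exact test, two-sided). The surroundings differed in the same direction, with flank medians of 26.6% without and 20.7% with a symbol, and the odds ratio does not take this into account. Of the 108, CpG was higher than in the flanks in 86 of 105 untied pairs (81.9%). The authors kept reads above a limit of mapping quality, so copies of a repeat that cannot be told apart by their reads would be missing from the list. In the median region, 2.64% of its 31-base words occurred more than once in the assembled chromosomes, and 40 regions (5.43%) consisted mainly of such words, at 50% or more. In the 108 repeat-rich regions, the median was 40.1%. The part of mappability in these results was not tested.

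A share of the repeat-rich regions came from a few sequence families. Altogether 164 regions (22.3%) shared a run of 31 bases with another region, and the 3 most shared runs defined families A, B and C with 33, 14 and 8 regions (7.47% in all). The families were chosen after these values were seen, so they are described without a test. Family A spread over 15 chromosomes, with 29 of 33 regions outside any gene. The run had 4792 exact copies in the assembled chromosomes. It was found in 12 regions with a symbol (0.721% against 4.48% without) and in 0 regions of the day 0 5mC, day 5 5hmC and day 10 5hmC lists. These regions held a median of 2.997 CpG per 100 bases, against 0.900 in their flanks, and a median of 60.4% repeat-marked bases.

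Family C was similar in composition, with 3.45 CpG per 100 bases against 0.748 in the flanks and 81.0% repeat-marked bases, but its run had only 217 copies. It was held by 1 region with a symbol and by 0 regions of the other lists. Family B differed. Its run was very common in the genome, with 27227 copies. It occurred in 19 regions with a symbol (1.14% against 1.90% without). Among the 326 regions called for 5mC at day 0, 7 held it. For 5hmC, 9 of the 2058 regions called at day 5 held it, but 0 of the 4164 called at day 10. For all 3 families, counts in these other lists were not adjusted for the number or width of regions. The lists therefore cannot be compared by them. The median share of words found more than once was 41.9% in family A, 14.7% in family B and 38.3% in family C.

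**Figure D3:**
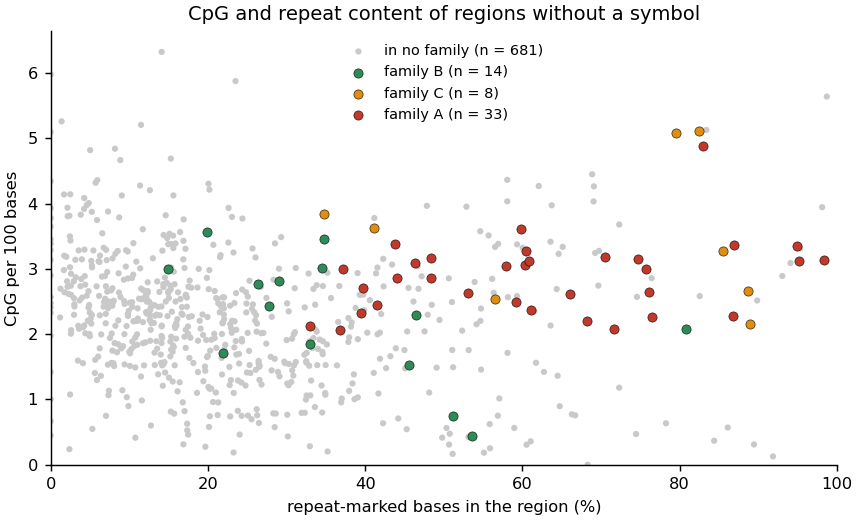
CpG per 100 bases (vertical axis) against repeat-marked bases (horizontal axis, %) for the 736 regions without a symbol, 1 point a region, with the 3 families in colour. The 33 family A regions ran from 32.9% to 98.3% repeat-marked bases at a median of 2.997 CpG per 100 bases.

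Known binding words were then counted in each region and in the flank of equal width on the side of higher coordinates, on both strands and with letters only, so a match is not a bound site. Of 10 motifs, 4 were more frequent in the regions than in their flanks, and each of these holds a CpG (two-sided exact binomial test on discordant pairs, n = 734). The flanks were not matched to the regions for base composition. CpG density was higher in the region in 90.6% of untied pairs, and the share of G and C in 66.0%. The motif tests against flanks cannot separate a preference for a word from this difference in composition. Such a preference was therefore not tested, for words with or without a CpG. The ETS word TTCCGG, of the family that includes many growth-factor-responsive activators, was in 158 regions and 59 flanks (21.5% and 8.04%, exact adjusted p = 2.46e-13). The GC box GGGCGG, read by SP and KLF proteins, was in 161 and 83 (21.9% and 11.3%, exact adjusted p = 1.26e-07). The E-box CACGTG was in 135 and 92 (18.4% and 12.5%, exact adjusted p = 0.00286). The CRE word TGACGTCA was in 39 and 5 (5.31% and 0.681%, exact adjusted p = 4.68e-07).

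Of the words without a CpG, the AP-1 word TGANTCA was less frequent in regions, with 159 against 223 flanks (21.7% and 30.4%, exact adjusted p = 4.14e-04). The cartilage-related words did not pass the test against these flanks. The SOX word ACAANGG was in 305 regions and 310 flanks (exact adjusted p = 0.913), and the RUNX word AACCACA in 135 and 154 (exact adjusted p = 0.349). Against flanks at 10000 bp, however, the RUNX word differed by -6.97 percentage points, regions minus flanks (exact adjusted p = 0.00370). NF1 words, CTGCCAAG or TTGCCAAG, were in 74 regions and 74 flanks (exact adjusted p = 1). The CTCF word AGNGGGCGC was in 6 and 4 (exact adjusted p = 0.913) and the NRF1 word CGCATGCG in 14 and 4 (exact adjusted p = 0.0515). In 200 bp windows at the centre, ETS alone kept its call, by 4.09 percentage points (exact adjusted p = 3.59e-04), while the CRE, E-box, GC box and AP-1 calls were lost.

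**Figure D4:**
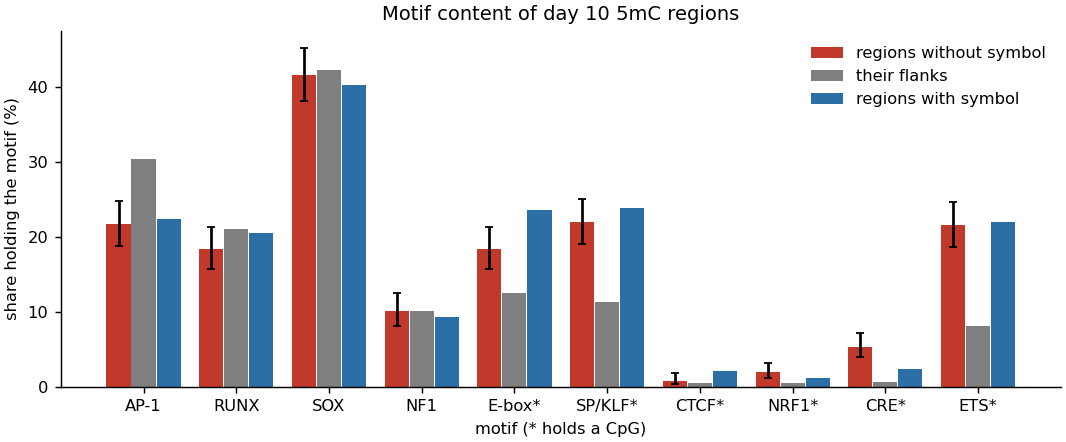
Share of sequences holding each motif (vertical axis, %) in regions without a symbol, in their flanks and in regions with a symbol. Whiskers are 95% Wilson intervals over regions without a symbol, and an asterisk marks a motif with a CpG. The ETS word was in 21.5% of regions and 8.04% of flanks.

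Much of the CRE count came from family A. Among the 64 palindromes of 8 bases with CG at the centre, a set added after values were seen, TGACGTCA was in 40 of all 736 regions and came first, the next being TCACGTGA with 16, and the median word was in 4. Outside repeat-marked sequence, TGACGTCA was in 15 regions, and TCACGTGA and CCACGTGG were each in 13. By count in regions with a symbol, TGACGTCA ranked 4 of the 64. CRE was in 40 of 1665 regions with a symbol (5.43% against 2.40%, odds ratio 2.34, adjusted p = 0.00200 in Fisher's exact test, two-sided). Of the 40 regions without a symbol, 34 overlapped no gene. The word lay only in repeat-marked sequence in 25, and 21 belonged to family A. When family A was left out of both sets, 19 of 703 regions (2.70%) and 33 of 1653 (2.00%) held it, and the difference was no longer past the threshold (Fisher's exact test, adjusted p = 0.401). Family A was picked as the most shared run among regions without a symbol, so leaving it out takes more from that set by selection. This comparison therefore cannot decide whether a difference remains. Against flanks, the CRE call held without family A (18 regions and 5 flanks, exact binomial test, adjusted p = 0.0212), but was lost when only sequence outside repeats was read (1.23 percentage points, exact adjusted p = 0.106).

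Other differences from regions with a symbol were small. Regions of at least 1000 bp made up 46.3% without and 52.7% with a symbol (two-sided Fisher's exact test, adjusted p = 0.0161), but this call was lost against symbol-bearing regions free of exons (-0.326 percentage points, exact adjusted p = 0.986). The E-box was in 18.3% and 23.5% (exact adjusted p = 0.0161). The calls for width, island criteria and E-box were also lost without family A (exact adjusted p = 0.0791, 0.0926 and 0.0791), and those for island criteria, E-box and CRE among regions of at least the median width of the list (exact adjusted p = 0.553, 0.146 and 0.866). As family A was picked from the regions without a symbol, the comparisons without it have the limit given above for CRE. The shares of AP-1 (21.6% and 22.4%), SOX (41.6% and 40.3%), RUNX (18.3% and 20.5%) and ETS words (21.5% and 21.98%) did not pass the test, although the ETS word was 7.10 percentage points more frequent than in the exon-free regions with a symbol (exact adjusted p = 0.00323).

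Overlap with 5hmC was rare. At least 1 bp was shared with a 5hmC region by 13 of the 736 (1.77%, 1.04 to 2.998), against 19 of 1665 with a symbol (1.14%, adjusted p = 0.384 in Fisher's exact test, two-sided). The day 5 list overlapped 9 and the day 10 list 10, with 6 in both, and no overlap with day 10 5hmC covered 50% of both regions. Each overlapping day 10 5hmC region was narrower than 50% of its 5mC region, as chr17:4626266-4626595 in chr17:4625985-4626903. Their widths therefore fixed this last result. The median distance to the nearest 5hmC region was 299.6 kb at day 5 and 147.8 kb at day 10. For regions with a symbol it was 234.5 and 117.9 kb. As the 5hmC lists hold 2058 and 4164 regions, the days cannot be compared by distance. None of the 736 regions overlapped any of the 326 day 0 5mC regions, and the same held for 0 of 1665 regions with a symbol. The closest region without a symbol lay 4.54 kb away. A count of 0 of 736 allows a share of up to 0.408% (3 counts), with a 95% Wilson upper limit of 0.519%. If both 5mC lists hold differences between the same samples, an overlap of 0 can follow from the calling.

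The 6 regions with 5hmC on both days were diverse. The mitochondrial region chrM:18-6704, the widest of all, covered mt-Nd1, mt-Nd2, part of mt-Co1 and both ribosomal RNA genes. Of its 31-base words, 21.8% occurred more than once in the assembled chromosomes. On chromosome 1, chr1:195241277-195242063 held 34 CpG, or 4.32 per 100 bases against 0.699 in its flanks, and the day 5 5hmC region chr1:195241181-195242048 covered nearly all of it. Within this region lay the following stretch, with CpG in capitals.
chr1:195241564-195241803: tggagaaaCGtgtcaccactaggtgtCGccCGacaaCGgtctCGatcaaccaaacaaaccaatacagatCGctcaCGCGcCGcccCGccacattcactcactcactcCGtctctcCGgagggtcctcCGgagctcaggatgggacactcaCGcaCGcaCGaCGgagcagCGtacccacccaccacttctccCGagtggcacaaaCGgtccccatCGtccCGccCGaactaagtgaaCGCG
A tandem repeat of low CpG density overlapped too, at chr17:4625985-4626903, with 5 CpG (0.544 per 100 bases against 0.707) and 38.2% of its 31-base words found more than once in the assembled chromosomes. Part of it is printed below with CpG in capitals.
chr17:4626515-4626754: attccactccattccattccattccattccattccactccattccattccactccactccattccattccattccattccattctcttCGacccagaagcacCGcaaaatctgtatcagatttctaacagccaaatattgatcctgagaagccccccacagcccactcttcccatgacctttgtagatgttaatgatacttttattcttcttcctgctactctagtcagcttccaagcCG
The others were chr14:104336662-104337320 in the noncoding RNA gene D130079A08Rik, whose nearest coding gene was the sensory neuron factor Pou4f1 (124.4 kb), chr15:60141466-60142298 in the noncoding RNA gene Gm2682, and chr3:85080567-85081188 inside the predicted coding gene Gm37240. Overlap on a single day was found for 7 more, 3 with day 5 and 4 with day 10. The widest of these, chr8:36555304-36556843, lay 10.9 kb downstream of Dlc1.

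The regions with most CpG differed in their surroundings. The densest, chr19:44683369-44684459, held 69 CpG (6.32 per 100 bases against 1.33 in its flanks) and lay 1.35 kb from the predicted gene Gm26644, with Pax2, a transcription factor of kidney and eye, as the nearest coding gene at 71.6 kb. Next came chr5:119802973-119803976, with 60 CpG (5.98 against 1.84) and no repeat-marked base, 28.7 kb upstream of Tbx5, a transcription factor of forelimb and heart. The tandem repeat chr5:65044194-65045214 followed, with 60 CpG (5.88 against 1.18), 2.31 kb downstream of Fam114a1. By number of CpG, chrM:18-6704 held 132, chr12:20232249-20234412 held 91, in the transcript gene Gm49692, and chr12:105022879-105024380 held 79, in the noncoding RNA gene Gm47648 and 8.31 kb upstream of Glrx5.

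Wide and isolated regions varied in CpG density. After the mitochondrial region, the widest were chrY:90737569-90740635 and chr5:20961561-20964210 (2649 bp, 5.16 kb upstream of Rsbn1l). The Y region held 2.05 CpG per 100 bases and its flanks 3.24. The 3 regions farthest from any gene lay 241.2 to 268.8 kb away. At chr5:133070731-133071818, printed above in part, there were 3 CpG (0.276 per 100 bases against 0.552), with Auts2 527.4 kb away as the nearest coding gene. At chr8:101780897-101781511, the density was 0.813 against 0.325, with the cadherin gene Cdh11 as the nearest coding gene at 850.6 kb. At chr4:31630972-31632029 it was 1.61 against 1.42, with the kinase gene Map3k7 nearest at 332.1 kb.

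Regions without a symbol were mostly far from one another. Among these regions alone, the median gap between neighbours on a chromosome was 1271 kb, and 80 of 714 gaps were within 100000 bp. Regions with a symbol were not counted, so gaps in the whole list can be shorter. The tightest group of 4 lay on chromosome 6 from 143377218 to 143426350, a span of 49.1 kb, in a stretch with no gene overlap downstream of the ethanolamine kinase gene Etnk1. Their CpG densities were 2.55, 1.09, 3.295 and 1.82 per 100 bases, against 1.18, 1.30, 1.15 and 0.912 in the flanks. Another group of 4, from 31009629 to 31132151 on chromosome 6, lay upstream of the zinc finger factor gene Klf14 and partly inside the noncoding RNA gene Lncpint. In this group 1.53, 1.72, 1.27 and 1.58 CpG per 100 bases stood against 1.21, 1.27, 1.499 and 1.58, so that 2 of the 4 were above their flanks. The last, on chromosome 15 from 96657955 to 96787525, lay around the adjacent amino acid transporter genes Slc38a1 and Slc38a2. Its densities were 3.20, 2.66, 2.20 and 2.29 against 1.34, 1.28, 1.10 and 1.38 in the flanks. This span also held 1 region with a symbol, and the spans of the other groups held 0.

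Of the genes of cartilage formation, Sox5 and Igf1 had regions nearby, 2 of 54 in a chondrogenesis list (3.70%). The background was similar, as 663 of 21924 protein-coding genes (3.02%) had one of the regions within 50000 bp. Sox5 encodes a partner of SOX9 in chondrocytes. It had 3 regions, at chr6:144374779-144375870 inside the gene, chr6:144783887-144784646 (1.91 kb upstream) and chr6:144822471-144823349 (40.5 kb upstream). Their CpG densities were 2.20, 1.84 and 2.62 per 100 bases against 0.824, 3.49 and 1.36 in the flanks, so that the region closest to the start was the one less dense than its flanks. Igf1, a growth factor for the growth plate, had chr10:87978450-87979284 at 41.4 kb downstream, with 2.63 against 0.240 and 53.1% repeat-marked bases. The Igf1 region belonged to family A.

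Other lists were described in the same way. Of 16 genes that write, read or remove cytosine modification, 1 was near, Dnmt3l, a cofactor of the de novo methyltransferases. Its region chr10:78020024-78020560, of family A, lay 21.4 kb upstream and was 94.97% repeat-marked, with 3.35 CpG per 100 bases against 0.466. Of 20 imprinted protein-coding genes, Snrpn was near, with chr7:59960605-59961375 at 21.1 kb downstream inside the transcript gene Snhg14. Germline genes (0 of 18) and genes of the homeobox clusters (0 of 39) had none, and 1 of 68 protocadherin genes did, Pcdh15. Within 100000 bp, where the background was 5.47%, the counts were 3 of 20 imprinted genes, 3 of 39 homeobox cluster genes and 3 of 54 chondrogenesis genes. Zinc finger genes with the Zfp prefix were near in 16 of 397 cases (4.03%), through 11 regions of which 5 lay near 2 such genes. Olfactory receptor genes were near in 5 of 1134 cases (0.441%), all 5 through a single region of family A on chromosome 2. These shares stand beside the background of 3.02% and were not tested.

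The chromosomes differed several-fold in density. There were 730 regions on the autosomes (0.305 per Mb of assembled sequence), 4 on X (0.0245 per Mb), and 1 each on Y and the mitochondrial chromosome. Chromosome 19 had the highest autosomal density (0.533 per Mb, 31 regions), followed by chromosomes 5 (0.514, 76 regions) and 10 (0.496, 63 regions). Chromosomes 12 (0.103, 12 regions), 7 (0.127, 18 regions) and 14 (0.140, 17 regions) had the lowest. The highest was 5.19 times the lowest, while CpG per 100 bases ranged only from 0.762 to 0.980 across autosomes. Regions without a symbol made up from 23.3% (chromosome 19) to 36.2% (chromosome 14) of the list on each autosome.

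A similar order of chromosomes appeared in the other lists. Across the 19 autosomes, the density of regions without a symbol correlated with that of regions with one (Pearson's r = 0.896, Spearman's rank correlation 0.925), of day 0 5mC regions (0.850 and 0.851), of day 10 5hmC regions (0.806 and 0.860) and of day 5 5hmC regions (0.683 and 0.730). With CpG content, Pearson's r was 0.462 and the rank correlation 0.502. These are descriptions over chromosomes, which share the cell line, gene content and base composition, and in the day 10 5mC list also the library. Chromosome copy number of ATDC5 was not analysed here and its part in these densities was not tested.

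**Figure D5:**
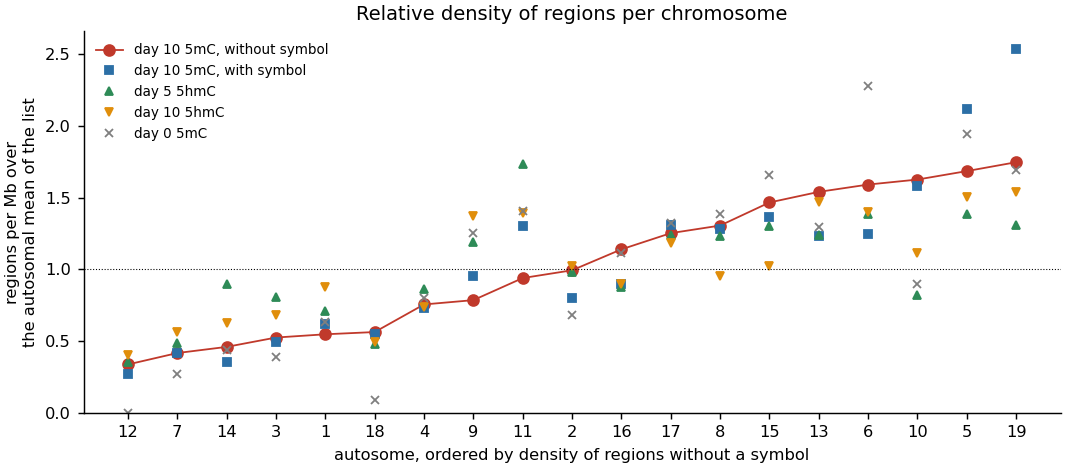
Regions per Mb on each autosome relative to the autosomal mean of the same list (vertical axis), with autosomes ordered by the density of day 10 5mC regions without a symbol (horizontal axis) and the dotted line at the mean. Regions without a symbol, joined by a line, ran from 0.337 on chromosome 12 to 1.75 on chromosome 19.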

How the data were processed

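Per the labels, DNA of ATDC5 cells was enriched for 5mC with a methyl-CpG binding complex or for 5hmC by biotin tagging and sequenced as single-end reads. As the study's methods state, reads were trimmed by the authors with cutadapt, aligned with BWA to GRCm38, filtered above a limit of mapping quality, and passed to peak calling with MACS (version 1.4.2 in the submitters' processing notes). The deposited lists hold coordinates and, for some regions, a gene symbol, but no height, enrichment or significance for a single region. Per the file headers, the lists were filtered at 3-fold (5mC) or 10-fold (5hmC) enrichment. The headers do not name the control, and the methods describe a search for gains and losses between progenitors and chondrocytes, so the lists may hold differences and not all marked sites. Another control, threshold or depth would change the regions. Depth is unknown.

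Regions were compared with GENCODE mouse release 21 and the RefSeq GRCm38 sequence, in which lower case marks repeats. All regions lay within its chromosome lengths. Flanks of equal width started 2000 bp from each edge, and promoters were 5000 bp upstream of protein-coding starts. Tests were two-sided exact binomial (region against flank) and Fisher's exact tests (without against with a symbol), run in Python 3.11.15 with scipy 1.17.1 after checks on simulated data. The Benjamini-Hochberg adjustment was made within families of 3 flank measures, 10 motifs or 14 features. Tests compare regions of 1 list and not samples. Named regions were the 3 widest, densest in CpG (at least 500 bp wide), richest in CpG and farthest from a gene, the tightest clusters of 4, regions overlapping 5hmC, and regions near genes of the chondrogenesis list. Regions near genes of the other lists were named where a list had only 1, and the set overlapping 5hmC on both days and all but the tightest cluster were chosen after their values were seen. The members and lists were chosen with earlier results of these data known. Profiles, palindromes, shared runs, repeated words and the alternatives without repeats, exons or family A were added after values were seen.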

Additional observations from a re-analysis of the deposited data

How the results depend on the processing

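CpG content and repeat share against flanks and the excess of repeat-rich regions over regions with a symbol kept their direction and call under every alternative run. The 23.2% of regions in genes became 8.83% with protein-coding genes only. The 663 genes near a region became 168 within 10000 bp, 1200 within 100000 bp and 1805 with all gene types. Overlap with day 10 5hmC fell from 1.36% to 0% when 50% of both had to be shared, a result fixed by the widths of the overlapping day 10 5hmC regions. In percentage points without minus with a symbol, the island difference of -2.28 was -2.002 in regions of at least the median width (exact adjusted p = 0.553), 1.42 against exon-free regions (0.207) and -2.11 without family A (0.0926). The width difference of -6.34 was -0.326 against exon-free regions (0.986) and -5.47 without family A (0.0791). Family A was picked from the regions without a symbol, so the values without it cannot decide whether these differences remain. At the median width CRE gave 0.746 (0.866), and NRF1 passed the threshold at 2.48 (exact adjusted p = 0.0212). Signs turned for AP-1 at the median width (3.42) and by gene overlap (0.206), ETS at the median width (0.0389) and against exon-free regions (7.10, exact adjusted p = 0.00323), NF1 by gene overlap (-0.0787) and SP/KLF against exon-free regions (4.80). Against flanks, they turned for RUNX in 200 bp windows (0.273), SOX with the lower flank (0.136), outside repeats (2.45) and without family A (0.713), and CTCF at 10000 bp (-0.820). RUNX passed the threshold at 10000 bp (-6.97, 0.00370), and NRF1 with the lower flank, at 10000 bp and outside repeats (1.499, 1.37 and 1.36). No cause of these changes was examined, so the cause was not tested in any case. No paired analysis was possible because the numbered 5hmC samples were merged into 1 list a day and 5mC had 1 sample a day, and for the same reason no replicate could be left out.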
